A study of Saccharomyces cerevisiae with 6 samples.

Results

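Nascent transcription was compared between a triploid and a haploid wild-type strain of Saccharomyces cerevisiae on the membranes that carried both. These were 2 of the 6 samples of the study, and they held 6 of its 18 run-on arrays, chosen by strain label alone. The haploid was strain BY4741 and the triploid strain PY4997, both unmutated per the labels and taken in exponential growth in YPD, a rich medium. The other samples were a cln3 deletion, a whi5 deletion, a diploid wild type (PY4993) and a tetraploid wild type (PY4996). The source label of the cln3 deletion speaks of wild-type cells in medium with KCl, against its title, so its values below are those of the sample titled cln3 deletion. The labels give no mating type or marker genotype for BY4741 or PY4997. Ploidy and any other difference between them therefore cannot be told apart.

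In a genomic run-on assay, cells are permeabilised with the detergent sarkosyl, which stops new initiation while polymerases already on the DNA resume elongation. They then build radioactive UTP into the RNA, so the label over a gene follows the density of engaged polymerases on it. In budding yeast, cell volume grows with the number of chromosome sets, and how nascent transcription follows volume is the question of the series. A triploid carries an odd number of chromosome sets, which pair poorly in meiosis but pass normally through mitosis.

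Each strain was a single sample with 3 run-on arrays, and the labels do not say that these came from separate cultures. Adjusted p-values therefore measure only the spread between arrays, which may be technical. An array was a home-made macroarray of 6144 spots of entire open reading frames. Spots are identified only by place, on a grid of 16 rows and 24 columns of blocks with 16 positions each, and the files hold no link from place to gene. No gene name or sequence was therefore assigned, and no gene group was examined.

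The pairing by membrane was as follows. Membrane 12 held haploid run-on 1 and triploid run-on 2, and membrane 13 held haploid run-on 2 and triploid run-on 3. The remaining haploid array, run-on 3, was on membrane 14, and the remaining triploid array, run-on 1, was on membrane 18. These last 2 arrays form the third pair, which shares no run-on array with the first 2 pairs. On both shared membranes the triploid had the higher run-on number, so run-on number and strain cannot be told apart there. In the third pair the order was the opposite.

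Median background-subtracted signal was 38.99, 85.38 and 80.15 on haploid run-ons 1, 2 and 3. It was 85.59, 55.84 and 166.4 on triploid run-ons 1, 2 and 3. Between 73.5% and 76.5% of haploid spots and between 74.3% and 82.4% of triploid spots reached an S/N (the deposited signal-to-noise value) of 2. The triploid's median signal was 1.43-fold the haploid's on membrane 12, 1.95-fold on membrane 13 and 1.07-fold in the third pair. That overall difference was removed by centring each array on its median, so every difference below is relative to the typical spot. Pearson's r of log2 signal between pairs of the 6 arrays lay from 0.891 to 0.962, and no 2 arrays held identical values. The number of arrays limits the precision.

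A level below is the log2 of run-on signal divided by the DNA signal of the same membrane, centred on the array median. A difference is the triploid level minus the haploid level, and within a membrane the DNA value cancels. Of the 6144 spots, 5924 had values on all 4 shared-membrane arrays. Of the 220 without, 127 had a genomic DNA signal of 0 on membrane 12 or 13, and 93 had a run-on signal of 0 on at least 1 array. No spot was at 0 in the triploid on both membranes while the haploid had S/N of at least 2 on both.

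The larger changes that recurred on both membranes were mostly falls in the triploid, relative to the typical spot. Among the 4070 spots with S/N of at least 2 on all 4 shared-membrane arrays, called bright below, 29 were lower by at least 1 log2 unit on both membranes and 2 were higher. None differed by that much in opposite directions. With a limit of 0.5 log2 units, 120 bright spots were lower on both membranes, 68 higher, and 7 went opposite ways. With a limit of 2 log2 units, 4 were lower and 0 higher. Over all 5924 tested spots, dim ones included, 98 were lower by at least 1 log2 unit on both membranes, 12 higher and 6 opposite. With the limit of 2 these counts were 16, 4 and 3. In the third pair, described below, 20 of the 29 bright spots were lower (69%, against 56.6% of bright spots tested). There 2 of the 2 were higher, against 43.4% of bright spots tested.

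Most spots moved little. The differences had an SD over spots of 0.738 on membrane 12 and 0.449 on membrane 13. Across the 5924 spots the differences on the 2 membranes correlated with a Pearson r of 0.48 and a Spearman rho of 0.46, and with an r of 0.55 over the bright spots. Both membranes gave the same direction for 3932 spots (66.4%), of which 2089 were lower and 1843 higher. These correlations are descriptions across spots, which share their arrays and are not independent replicates.

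**Figure D1:**
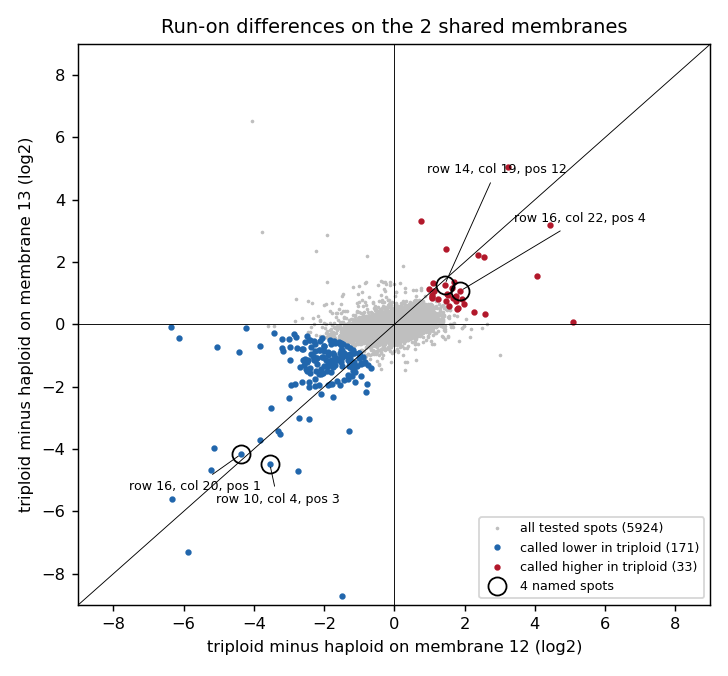
Triploid minus haploid difference (log2) of each of the 5924 tested spots on membrane 12 (x axis) and membrane 13 (y axis); blue and red points are the 171 and 33 spots called lower and higher, rings are the 4 named spots and the diagonal marks equal differences. The blue tail runs down to about the diagonal at both named falls, while the named rises sit close to the main cloud.

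Ranked by the smaller of its differences on the shared membranes, the leading bright fall was at row 16, column 20, position 1. Its haploid levels were 2.52 on membrane 12, 3.08 on membrane 13 and 2.86 on membrane 14. Its triploid levels were -1.84 on membrane 12, -1.07 on membrane 13 and -3.64 on membrane 18. All 3 triploid arrays lay far below all 3 haploid arrays, with no overlap. Triploid S/N was 2.88 on membrane 12, near the limit of 2, and 6.95 on membrane 13, against 20.9 and 14.3 in the haploid. The difference was -4.36 on membrane 12, -4.16 on membrane 13 and -6.5 in the third pair. Within membranes the mean difference was -4.26 (SE 0.26, 4 arrays), a 19.1-fold lower run-on density, with an adjusted p from limma of 2.1e-08. Over all arrays it was -5.01 (SE 0.62), with an adjusted p from limma of 0.00026.

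This spot was low in every polyploid array. On membrane 18 the diploid, triploid and tetraploid arrays read -3.50, -3.64 and -3.26, below every other polyploid array (-2.09 to -1.07). The genomic DNA signal of the spot was 333 on membrane 18, with S/N of 3.39, against 57.9 to 75.3 on the other 6 membranes. A higher DNA signal lowers every ratio on its membrane, so the third pair and the all-array value carry it and the within-membrane value does not. The cln3 deletion arrays were low as well, between -1.55 and -1.48, so a low level here was not particular to the polyploids. The whi5 deletion arrays lay between 2.14 and 3.50, over the haploid range.

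The second fall was at row 10, column 4, position 3. Its haploid levels were 0.67, 1.33 and 1.31 on membranes 12, 13 and 14. Its triploid levels were -2.88, -3.14 and -2.95 on membranes 12, 13 and 18. The haploid and triploid arrays again did not overlap, and the triploid values spread over less than 0.5 log2 units. The difference was -3.55 on membrane 12, -4.47 on membrane 13 and -4.26 in the third pair. The mean within membranes was -4.01 (SE 0.28), a 16.1-fold lower density, with an adjusted p from limma of 1.1e-07. Over all arrays, which include those of the shared membranes, it was -4.09 (SE 0.34), with an adjusted p from limma of 4.5e-06.

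At this spot the triploid signal was close to background, with S/N of 2.12 on membrane 12 and 3.26 on membrane 13 against 17.5 and 33.8 in the haploid. The diploid read from -3.90 to -2.55 and the tetraploid from -3.37 to -3.02. The cln3 deletion, from 0.51 to 1.63, and the whi5 deletion, from 0.03 to 0.88, lay near the haploid. Low levels at this place were thus seen in the 3 polyploids and in none of the haploid or deletion arrays.

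Ranked by the smaller of its differences on the shared membranes, the leading bright rise was at row 14, column 19, position 12. Its haploid levels were 1.89, 1.19 and 1.22 on membranes 12, 13 and 14, and its triploid levels 3.32, 2.46 and 2.62 on membranes 12, 13 and 18. The groups did not overlap. The difference was 1.43, 1.27 and 1.40 in the 3 pairs. The mean within membranes was 1.35 (SE 0.26), a 2.55-fold higher density, with an adjusted p from limma of 0.0051. Over all arrays it was 1.37 (SE 0.45), and the adjusted p from limma was 0.27, above the threshold of 0.05. With run-on number and membrane as blocks the all-array difference was 1.52 and was called, at an adjusted p from limma of 0.023. With membrane alone as a fixed block the adjusted p was 0.21. The diploid arrays spread from 0.92 to 2.81 at this spot, over the range of both strains. The tetraploid arrays read from 1.38 to 2.46. The cln3 deletion arrays read from 2.42 to 3.10, within reach of the triploid, and the whi5 deletion arrays from 0.32 to 1.53.

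The other rise was at row 16, column 22, position 4. Haploid levels were -0.46, -0.32 and -1.74 on membranes 12, 13 and 14, and triploid levels 1.41, 0.75 and 0.32 on membranes 12, 13 and 18. The groups did not overlap, with the haploid array on membrane 14 lowest. On that membrane the genomic DNA spot had S/N of 2.51, against 13.0 or more on the other 6 membranes, and a DNA signal of 411, against 116 to 248 elsewhere. The difference was 1.87, 1.07 and 2.06 in the 3 pairs. The mean within membranes, where the DNA value cancels, was 1.47 (SE 0.27), a 2.77-fold higher density, with an adjusted p from limma of 0.0045. Over all arrays it was 1.67 (SE 0.49), with an adjusted p from limma of 0.19. The all-array model called it once membrane was a fixed block (difference 1.56, adjusted p from limma 0.026), a random block (1.65, 0.046), or a block beside run-on number (1.61, 0.0058). At this spot the diploid arrays read from -0.86 to 0.69 and the tetraploid arrays from -0.29 to 0.89. The cln3 deletion arrays read from -0.63 to 0.80 and the whi5 deletion arrays from -0.79 to -0.02. Each rise lost its call in 5 of 16 alternatives to the within-membrane fit, which include fits of 18 arrays with membrane as a block. In those 5 the adjusted p-values from limma were 0.053 to 0.27 for the first and 0.055 to 0.27 for the second.

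**Figure D2:**
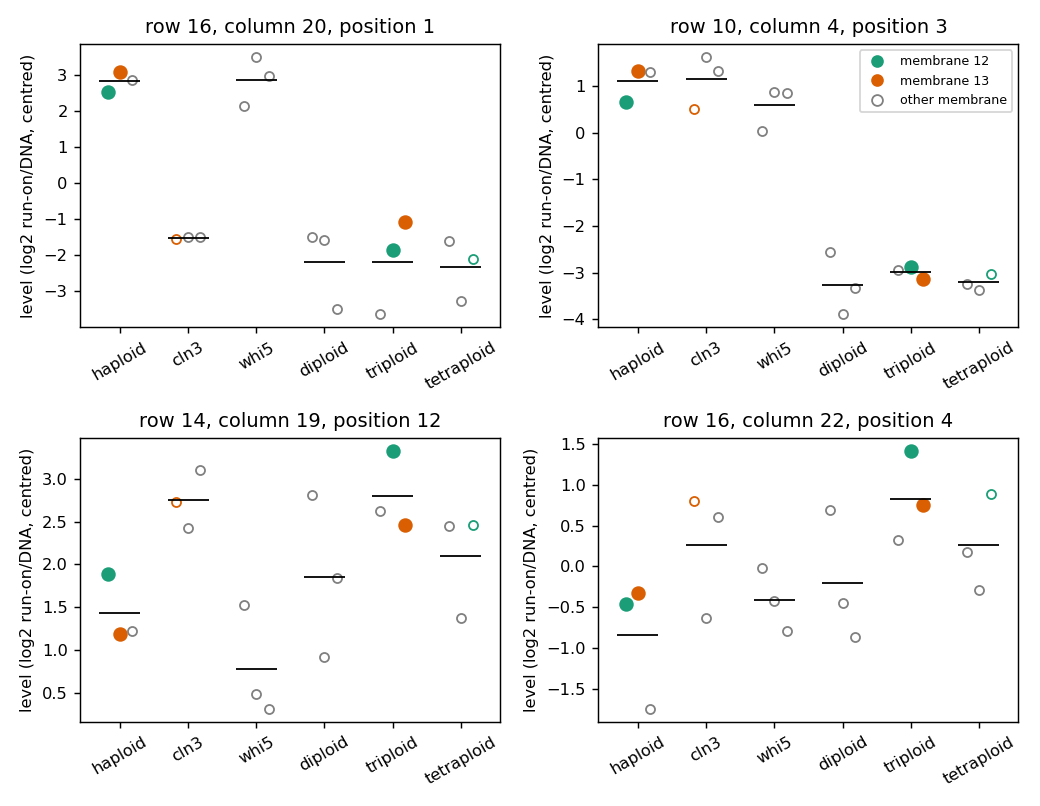
Level (centred log2 run-on over DNA ratio, y axis) of the 4 named spots on each of the 18 run-on arrays by strain (x axis); filled points are haploid and triploid arrays on shared membranes 12 and 13, open points all others, and bars are means of 3 arrays. The 2 falls are low on all polyploid arrays, and the fall at row 16 is low on the cln3 deletion arrays too. At the 2 rises the haploid and triploid do not overlap while the diploid spans much of the gap. Some tetraploid and cln3 deletion arrays lie close to or within the triploid range at the rises.

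The within-membrane model called 204 spots at an adjusted p under 0.05 (3.44% of those tested), of which 171 were lower in the triploid (2.89%) and 33 higher (0.557%). Without adjustment, 921 spots (15.5%) had a p under 0.05. With 2 differences per spot the model had 1 residual degree of freedom, and the spread leaned on a prior worth 15.2 degrees of freedom. The median SE was 0.26. The share of calls that were higher was 16.2%. It was 34.6% after quantile normalisation (153 calls), 26.5% after cyclic loess (49), 31.9% over spots with S/N of at least 2 on all arrays (204), and 30.1% over spots in the upper 75% of signal (229). On density without background subtraction it was 50.4% (520), so the balance of falls over rises was absent there.

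Many falls lay near background. Of the 171, 53 were bright (31.0%, against 68.7% of all tested spots), and 59 had S/N under 2 on all 4 arrays (34.5%, against 12.2%). A further 40 were mixed. The remaining 19 had S/N of at least 2 in the haploid on both membranes and under 2 in the triploid on both, which was 11.1% of the falls against 0.456% of all tested spots. A fall needs less triploid signal, so the higher share follows partly from the call. Haploid S/N at those 19 spots had a median of 3.23 and ran from 2.04 to 27.2. The triploid level there is only a bound, and no fold is given. The rises comprised 12 bright spots, 3 above S/N 2 only in the triploid, 11 in neither strain and 7 mixed.

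The 53 bright falls had a median difference of -1.37 (-4.26 to -0.96), and the 12 bright rises one of 1.25 (1.06 to 1.47). Among these bright calls the rises were narrow in range, while the falls had a tail that the rises lacked. Over all tested spots, 4 were higher by at least 2 log2 units on both membranes, and none of them was bright. The shared-membrane arrays of the haploid and triploid chose the bright calls, so the gap between those 2 strains is partly fixed by the choice. The model did not use the arrays of the other strains, and the likeness of their levels to either strain was not tested. At the 53 bright falls the median level was 0.79 in the haploid and -0.67 in the triploid. It was -0.64 in the diploid, -0.85 in the tetraploid, -0.03 in the cln3 deletion and 0.53 in the whi5 deletion. At the 12 bright rises the median was 0.69 in the haploid, 1.74 in the triploid, 1.14 in the diploid and 1.46 in the tetraploid. It was 1.39 in the cln3 deletion, above the diploid, and 0.59 in the whi5 deletion.

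The number of calls moved from 38 to 520 with the settings tried. Of the spots called, 27 were called in each of 14 versions of the 4-array model in which they could be tested. These versions used no array of another strain, and 24 of the 27 were also called with the run-on shift of the other strains, described below, removed. This subset was chosen after its values were seen and was given no test. Of its members 26 were lower and 1 was higher, at row 4, column 11, position 8. There the haploid S/N was 0.378, 0.100 and 0.272 on run-ons 1, 2 and 3, and the triploid S/N was 2.48, 5.69 and 4.52. The haploid level there is below background. Set per array to the dimmest signal anywhere on it that reached an S/N of 2, it put the triploid 2.64-fold higher within membranes. The limit of the spot itself was not measured and may be higher, so 2.64-fold is not a minimum. Of the 26 falls, 12 were bright, with a median of -2.05 (-4.26 to -1.62), and another 12 had triploid S/N under 2 on both membranes. Haploid S/N was at least 2 on both membranes at 22, and genomic DNA S/N at 16. The falls lay in 26 different blocks and at 14 of the 16 positions.

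In the third pair, 24 of the 25 stable falls with a value were lower, against 51.9% of all tested spots. Their median was -1.92 (-6.5 to 1.08) over measured values, dim spots included. All 3 triploid arrays lay below all 3 haploid arrays at 24 of these 25, against 7.66% of the 5890 spots with all 6 values. Of those 6 arrays, 4 chose the spots, so nothing is read from that count. Median levels at these 26 spots were 1.06 in the haploid, 0.62 in the whi5 deletion and 0.33 in the cln3 deletion. The triploid median was lowest at -1.76, with the tetraploid at -1.50 and the diploid at -1.42. The haploid and triploid arrays of the shared membranes chose these spots. The diploid and tetraploid medians lay nearer the triploid than the haploid. Over all tested spots the 6 medians lay between 0 and 0.02.

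The comparison over all arrays asked which changes hold with membrane fixed. The strain-mean model of 18 arrays called 57 of 5934 spots (0.961%), with 52 lower (0.876%) and 5 higher (0.0843%). All 57 differed in the called direction on membrane 12 and on membrane 13, but those arrays also helped to call them. The within-membrane model called 46 of the 57 (80.7%), 44 falls and 2 rises, which was 22.5% of its own calls. The 11 others had sizes from 0.72 to 1.25 over all arrays and within-membrane adjusted p-values from limma of 0.053 to 0.16. Of the 52 falls, 27 were smaller and 25 larger within membranes, and the median change was 0.01. The shared-membrane arrays are part of both fits, and the all-array fit chose these falls. The small median change was therefore partly fixed in advance. Whether membrane alters the size of the falls was not tested by it.

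A fit of all 18 arrays with membrane as a fixed block called 42 spots (0.708%), of which 38 were lower (0.64%) and 4 higher (0.0674%). It shared 35 with the 57 and 39 with the 204. With run-on number as a further block the fit called 503 spots (8.48%), 340 lower (5.73%) and 163 higher (2.75%). These included all 57 and 136 of the 199 within-membrane calls it could test. Without haploid run-on 3 the strain-mean model called 35 spots, and without triploid run-on 2 it called 36. Leaving out any of the other 4 arrays gave 43 to 71.

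The third pair gave values from separate arrays. Its differences had an SD of 0.752 and correlated over 5890 spots with an r of -0.08 with those of membrane 12 and of 0.23 with those of membrane 13. Of the 166 within-membrane falls with a value, 99 were lower (59.6%), against 51.9% of all tested spots, with a median of -0.28. Of the bright falls, 40 of 53 were lower (75.5%, against 56.6% of bright spots tested) with a median of -0.92. Of the other falls, 59 of 113 were lower (52.2%), close to the share of all spots. Of the 30 rises with a value, 26 were higher (86.7%, against 48.1%). Among them were 11 of the 12 bright rises, against 43.4% of bright spots tested.

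**Figure D3:**
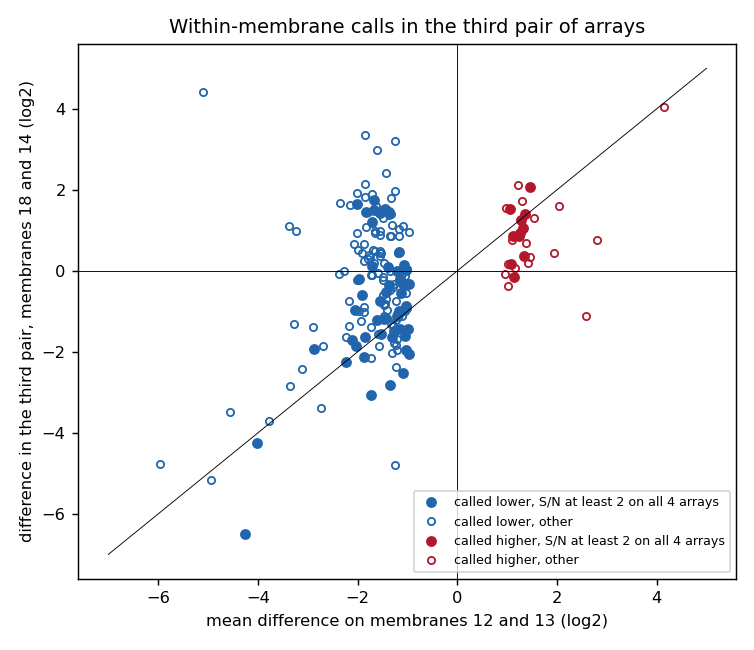
Within-membrane mean difference (x axis, log2) and third-pair difference (y axis, log2) of the called spots with a third-pair value, with bright spots filled, others open and the diagonal marking equal differences. The deepest falls lie near the diagonal, while the open points around -1 to -2 scatter on both sides of 0.

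A fit without the 4 shared-membrane arrays, with spread taken from the other 4 strains, called 6 of 5908 spots (0.102%), all lower, and 596 spots had an unadjusted p under 0.05 in limma. Each arm was 1 array, assumed to vary like the other strains. Of the 6, 5 were also lower on both shared membranes, by values from -4.47 to -1.64, and were called within membranes. Both named falls were among them. The sixth, at row 14, column 22, position 2, was chosen for mention after its values were seen. It fell by 2.98 in the third pair, with an adjusted p from limma of 0.0025, but its difference was 0.46 on membrane 12 and 0.28 on membrane 13. The level was -1.02 on triploid run-on 1, with S/N of 6.09, and 1.48 to 2.05 on the other 17 arrays. The call rests on that array alone on the triploid side.

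A shift between run-on numbers moved with the differences. It was measured on the 12 arrays of the other 4 strains, as the mean level of one run-on number less that of another. Each of these strains also changed membrane with run-on number, so the shift carries membrane and genomic DNA values too. These cannot be told apart in it, and subtracting it brings DNA values back into the within-membrane differences. Over 5845 spots the shift from run-on 1 to run-on 2 correlated with the difference on membrane 12 at an r of 0.46, and the shift from run-on 2 to run-on 3 with that on membrane 13 at 0.06. The shift from run-on 3 to run-on 1 correlated with the third pair at 0.45. At the 171 falls these shifts had medians of -0.47, -0.09 and 0.48, in the direction of the falls on the shared membranes and against them in the third pair. At the bright falls they were smaller, at -0.21, -0.01 and 0.24.

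With the shift subtracted from each difference, the medians at the falls came closer between the 3 pairs. They went from -1.89, -1.15 and -0.28 on membrane 12, membrane 13 and the third pair to -1.31, -1.02 and -1.01. In the third pair 138 of 157 falls (87.9%) were then lower, against 49.5% of all tested spots. There 25 of 27 rises were higher, against 50.5% of all tested spots. Of the bright falls 52 of 53 were lower, but the share over bright spots was not computed with the shift removed. At the rises the medians spread further, from 1.70, 0.95 and 0.86 to 1.83, 0.57 and 0.80. The r between membranes 12 and 13 was 0.50 before and 0.30 after on the same spots. The r between the third pair and membrane 12 went from -0.09 to 0.27, and with membrane 13 from 0.26 to 0.18. With the shift removed, the within-membrane model called 38 spots, 37 of them among the 204, and both named falls kept their calls. The named rises grew, from 1.35 to 1.57 and from 1.47 to 1.69, while each had an adjusted p from limma of 0.27.

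Level and place also moved with the differences. In the lowest decile of spots by mean level, the median difference was -0.44 on membrane 12 and -0.20 on membrane 13, but 0.29 in the third pair. That decile held 106 of the 204 calls (52.0%), and 17.9% of its spots were called. In the highest decile the medians were -0.11, -0.02 and -0.42. The other strains' shift from run-on 1 to run-on 2 ran from -0.25 in the lowest decile to 0.14 in the highest. The median of the dimmest spots was thus below 0 on the shared membranes and above 0 in the third pair.

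By position in the block, the median difference on membrane 12 ran from -0.43 at position 13 to 0.28 at position 4, a span of 0.71. The span was 0.18 on membrane 13 and 0.62 in the third pair. Over the 16 positions, the medians on membrane 12 correlated with the other strains' shift from run-on 1 to run-on 2 at 0.97, with membrane 13 at 0.82 and with the third pair at -0.90. By block row the span was 0.17, 0.38 and 0.15 in the 3 pairs, and by block column it was 0.44, 0.27 and 0.63. Calls lay in 154 blocks, and 9 blocks held 3 or more. Centring each array within positions left 49 calls, all among the 204, with both named falls called. The named rises were not called, with differences of 1.37 and 1.29 and adjusted p-values from limma of 0.061 and 0.099. The part of run-on number, level and position in the remaining differences was not tested.

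**Figure D4:**
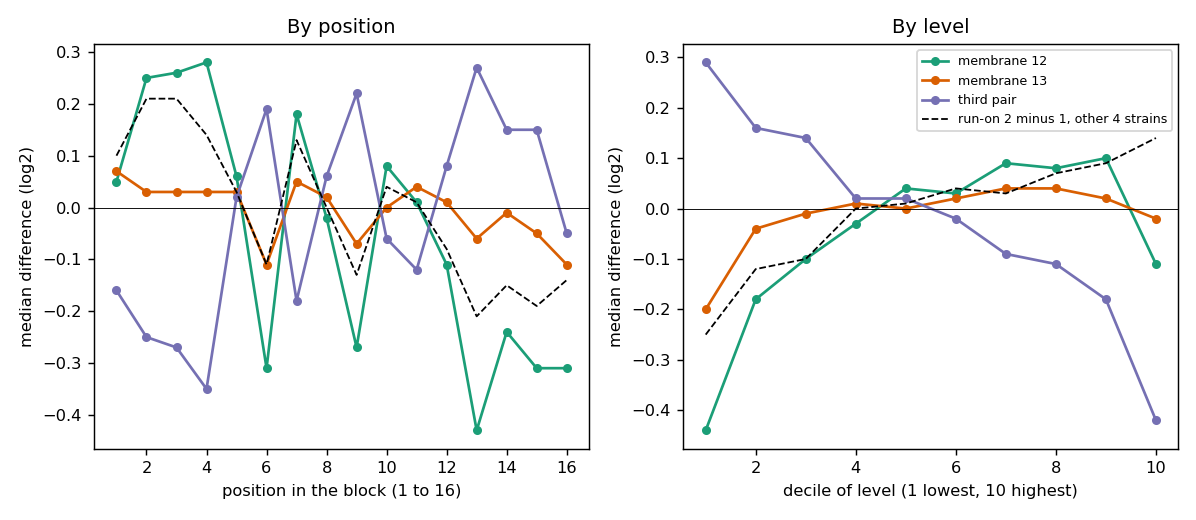
Median triploid minus haploid difference (log2, y axes) by position in the block (left) and by decile of mean level (right) for membrane 12, membrane 13 and the third pair, with the shift from run-on 1 to run-on 2 of the other 4 strains dashed. Membrane 12 follows the dashed line by position, and the third pair runs opposite to it.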

How the data were processed

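Strain came from each sample's title, and run-on number and membrane from the deposited array names. Per the file headers, the deposited density and background-subtracted density columns are intensities per area, and S/N, also deposited, is the authors' score for signal against background. No source used here names the imaging program. The series text names a normalisation by median absolute deviation (MAD), which is not visible in these intensities. The 18 genomic DNA files hold 7 hybridisations, 1 per membrane. The file of triploid run-on 1 was saved with another number format.

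Background-subtracted run-on intensity was divided by genomic DNA intensity, and log2 ratios were centred on the median. Spots at 0 on an array used were left out. Differences were fitted with limma 3.58.1 in R 4.3.3 (lmFit, eBayes, Benjamini-Hochberg over all spots tested), over 4 arrays with membrane as block, 18 arrays, or 14 without the shared-membrane arrays. The scripts were tested on simulated data. The named spots are the 2 falls and 2 rises with the largest smaller-of-both difference among bright spots moving one way. Subsets and settings were chosen with earlier results of these data known.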

Additional observations from a re-analysis of the deposited data

How the results depend on the processing

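The within-membrane count of 204 became 111 after scaling to a common MAD, 49 with cyclic loess, 520 on density without background subtraction, 69 with signals of 0 floored, and 42 with 18 arrays and membrane as a block. With settings chosen after seeing the data it was 49 (centred by position), 44 (position, row and column), 38 (run-on shift removed) and 310 (intensity trend alone). The all-array count of 57 became 31 with S/N of at least 2 on all arrays, 36 without genomic DNA, 28 with the 6 arrays alone and 92 with membrane as a random block. Arrays left out one at a time gave 35 (without haploid run-on 3) to 71 (without triploid run-on 3), with 36 without triploid run-on 2. The count of 6 from separate arrays became 21 after MAD scaling. The causes were not tested.

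Deviations of haploid and triploid arrays from their strain means correlated at 0.39, -0.18 and 0.08 by run-on number, which was not taken as pairing. By membrane the same measure gave 0.01 on membrane 12 and 0.58 on membrane 13, so membrane 12 showed no pairing by it. As a replicate block, run-on number gave 90 calls, and with membrane 503, including all 57. The share of all-array calls also called within membranes, 80.7%, became 50.9% with signals of 0 floored and 35.5% after centring by position, row and column. The median in the lowest decile, -0.32 over both membranes, became 0 after quantile normalisation, -0.03 after cyclic loess, -0.10 with S/N of at least 2 and -0.11 over the upper 75% of signal.

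Both named falls kept direction and call in all 16 within-membrane and 22 all-array alternatives. Each named rise kept its direction, and its within-membrane call in 11 of 16. Leaving a membrane out leaves no residual degrees of freedom, so no such test was run. Near-background spots limit what 4 arrays can resolve.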
